A study of Mus musculus with 12 samples.

Results

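The anti-Rtl1 miRNAs are 8 hairpins, Mir337, Mir540, Mir665, Mir431, Mir433, Mir127, Mir434 and Mir136, which follow each other in this order on the plus strand of mouse chromosome 12 in the imprinted Dlk1-Dio3 locus. They were taken by name from the GENCODE vM21 annotation of GRCm38 and are 8 of its 2202 miRNA genes. A read of at least 18 nt was given to a hairpin when its whole sequence matched the hairpin exactly on the sense strand. In the 12 libraries of the series 875623 reads did so, and no such sequence matched another annotated gene. Levels are given as CPM, the counts of a hairpin scaled to a fixed library size by the total reads of the library.

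Rtl1 is a retrotransposon-derived gene that is transcribed from the paternal copy of the locus, and the hairpins are processed from a transcript that runs against it on the maternal copy. A miRNA hairpin is cut by Drosha and then by Dicer into a duplex of a 5p and a 3p arm, and 1 arm of the duplex is kept by an Argonaute protein, where bases 2 to 8 (the seed) select most targets. Where an arm pairs with an RNA along its whole length, Ago2 can cut that RNA opposite bases 10 and 11 of the arm, and several anti-Rtl1 miRNAs are known for acting on Rtl1 mRNA in this way in placenta.

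All libraries hold small RNA of 18 to 75 nt from mouse embryonic stem cells, a pluripotent cell type grown here in serum and leukemia inhibitory factor. TT-FHAgo2 and TT-Ago2 are clonal lines kept at 0.1 µg/mL doxycycline and raised to 2.5 µg/mL, the dose at which Ago2 reached its wildtype level per the labels. FLAG immunoprecipitates (IP) and inputs of both lines, 2 libraries each, were cloned by circularization, a method that does not need a 5′ phosphate on the RNA. The TT-FHAgo2 line is called tagged and the TT-Ago2 line untagged, and the FLAG IP of the untagged line is the background of the pull-down. Another 4 libraries of 1 sample each were cloned by ligation to a 5′ phosphate: TT-FHAgo2 at 2.5 µg/mL doxycycline, TT-FHAgo2 without doxycycline, wildtype cells and Dicer-null cells, the last pair without doxycycline. The series describes cells without Ago proteins, but the labels do not say how long doxycycline had been withdrawn, and small RNA reads do not check the Ago2 level or the Dicer deletion.

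The annotated mature arms show what was counted. The arm with most reads in the tagged IP is given for each hairpin, from RefSeq (GRCm38.p6), 5′ to 3′, with the seed in capitals.
miR-337-5p: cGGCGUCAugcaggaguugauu
miR-540-3p: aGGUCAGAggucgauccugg
miR-665-3p: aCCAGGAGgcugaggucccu
miR-431-5p: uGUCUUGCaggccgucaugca
miR-433-3p: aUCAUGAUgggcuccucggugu
miR-127-3p: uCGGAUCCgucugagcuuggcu
miR-434-3p: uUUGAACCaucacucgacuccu
miR-136-5p: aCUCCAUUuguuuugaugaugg
The opposite arms of Mir337, Mir127, Mir434 and Mir136 are added because their share or their first base differed between circularization and ligation libraries or in the Dicer-null library.
miR-337-3p: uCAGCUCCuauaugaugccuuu
miR-127-5p: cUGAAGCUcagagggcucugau
miR-434-5p: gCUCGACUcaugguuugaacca
miR-136-3p: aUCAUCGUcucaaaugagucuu
The 16 annotated arms of the 8 hairpins have 16 different seeds, so no seed family lies within the group. Among the other mature mouse miRNAs of the table, miR-6915-5p has the seed of miR-540-3p, and no other arm of the group shares its seed.

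Mir431, Mir433, Mir127, Mir434 and Mir136 lie inside the gene body of Rtl1 (chr12:109589193-109600330, minus strand), on its opposite strand. Both mature arms of each of these 5 were complementary to the coding sequence of the annotated Rtl1 transcript over their whole length. Mir337 (chr12:109585789-109585885), Mir540 (chr12:109586080-109586146) and Mir665 (chr12:109586314-109586407) lie outside Rtl1, and their arms matched its transcript over no more than 11 consecutive bases. The Rtl1 sites of the most abundant arms, all in the coding sequence, are shown 5′ to 3′ in the sense of Rtl1 from the GENCODE transcript, with the bases opposite bases 10 and 11 of the miRNA in capitals.
Site of miR-431-5p at chr12:109590459-109590479: ugcaugacggCCugcaagaca
Site of miR-433-3p at chr12:109591781-109591802: acaccgaggagCCcaucaugau
Site of miR-127-3p at chr12:109592888-109592909: agccaagcucaGAcggauccga
Site of miR-434-3p at chr12:109594565-109594586: aggagucgaguGAugguucaaa
Site of miR-136-5p at chr12:109595331-109595352: ccaucaucaaaACaaauggagu

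The libraries held 14474875 to 78762632 reads, and hairpin reads of all miRNA genes made up 50.7 to 58.3% of the tagged IP, 9.19 to 13.1% of the untagged IP and 1.81 to 3.36% of the inputs. In the ligation libraries they made up 21.1% in wildtype, 10.3% with doxycycline, 1.30% without it and 1.42% in Dicer-null cells. The stem cell hairpins of the miR-290 and miR-302 clusters were summed without Mir292a, which had no counts under that name. They came to 8002 to 306841 CPM in the circularization libraries and to 46744 CPM in wildtype. Markers of other cell types were lower there: fibroblast hairpins summed to 8.45 to 576 CPM and neural hairpins to 16.5 to 779 CPM in the circularization libraries. The blood list reached 6750 CPM in the tagged IP through Mir142 and Mir150, while Mir451a stayed under 5 CPM and Mir223 had no read there. The part of these other hairpins in the results was not tested. The labels do not say that libraries of a group came from separate cultures, so the p-values speak only of the spread among these libraries, and that spread may be technical.

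The 8 hairpins together made up 2.20% and 2.50% of the hairpin reads of the tagged IP, libraries 1 and 2. The untagged IP held 2.24% and 2.05%, the input of the tagged line 1.77% and 1.53%, and the input of the untagged line 2.06% and 1.99%. Doxycycline-treated cells had 2.01% and wildtype cells 1.502%. The circularization libraries thus ranged from 1.53 to 2.50%, whereas the share was 0.393% without doxycycline and 0.249% in Dicer-null cells. In bulk RNA, fewer cells of a type and less RNA per cell cannot be told apart.

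Within the group, 4 hairpins carried most reads. In the tagged IP of libraries 1 and 2, Mir136 stood at 3975 and 3539 CPM and Mir127 at 2896 and 2732 CPM. Mir431 had 2465 and 2353 CPM, and Mir434 had 1964 and 2775 CPM. Among these exactly matching reads, Mir136 lay above the other 3 and Mir127 above Mir431 in both libraries. The range of Mir434 overlapped those of Mir127 and Mir431. Reads with 3′ bases that the hairpin does not encode are not in these levels. With up to 2 such bases allowed, 37.0% and 38.9% of miR-127-3p reads carried them, against 0.952% and 0.697% of miR-136-5p reads. The place of Mir127 in this order thus holds for exact matches only. Mir337 (598 and 403 CPM) and Mir433 (507 and 468 CPM) overlapped as well. Mir540 (258 and 260 CPM) and Mir665 (191 and 129 CPM) were the lowest. Reads of different hairpins also carry the cloning efficiency of each sequence, so this is an order of reads.

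**Figure D1:**
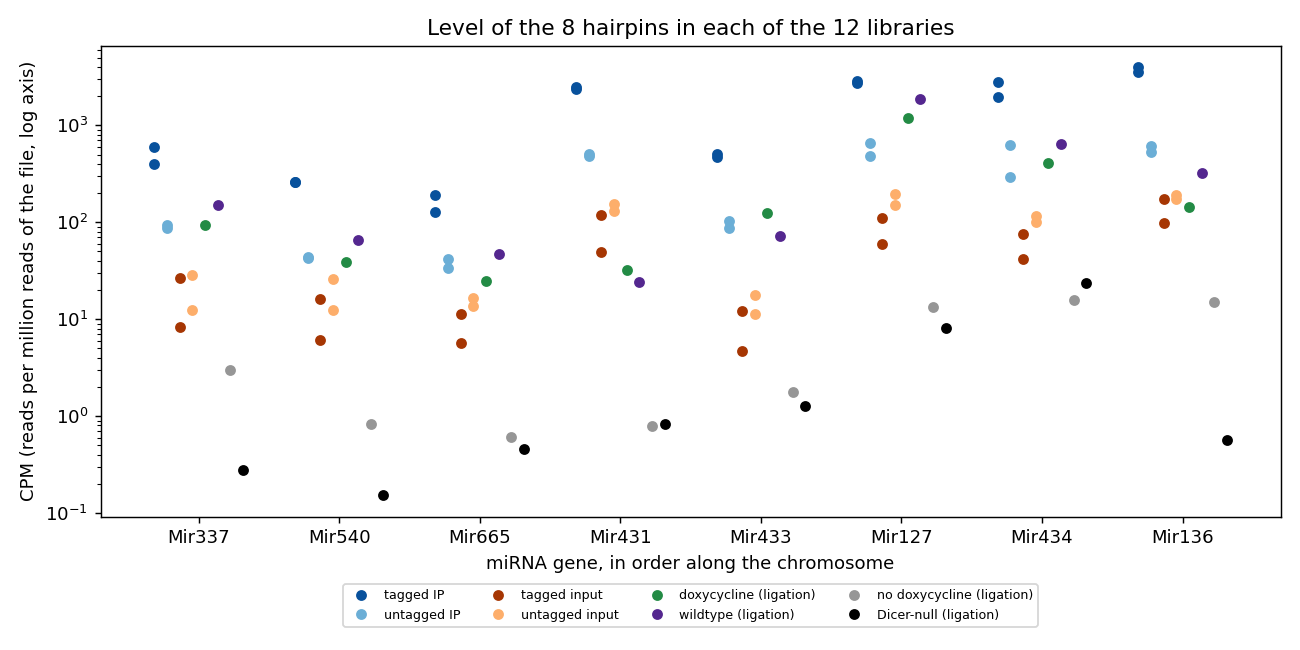
Each point is the level of 1 of the 8 hairpins in 1 library, in CPM on a log axis, coloured by group; the IP and input groups have 2 points and the ligation groups 1. The tagged IP points lie highest for each hairpin, and Mir431 and Mir136 lie lower with doxycycline and in wildtype than in the untagged IP while Mir127 lies higher.

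The order differed between the circularization libraries and 2 of the ligation libraries. There Mir127 made up 57.8% of the group's reads with doxycycline and 58.5% in wildtype, against 20.3 to 29.4% in the 8 circularization libraries. Mir431 made up 1.54% and 0.755% there, against 18.0 to 23.4%, and Mir136 6.93% and 10.1%, against 23.02 to 35.9%. These values lay outside the circularization ranges for all 3 hairpins. The ligation library without doxycycline did not follow this for Mir127 (26.1%) and Mir136 (29.4%), which lay inside the ranges, nor did Dicer-null cells for Mir127 (22.8%), while Mir431 was below its range in both (1.55% and 2.34%). Mir434 (19.9% and 20.1%) fell within its circularization range of 13.8 to 23.3%. The tagged input and the ligation library with doxycycline share the line and the dose, but the method, the code in the sample title and the read length differ together and cannot be told apart.

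Across the 12 libraries the 28 pairs of hairpins had Pearson correlations of 0.769 (Mir431 with Mir127) to 0.993 (Mir540 with Mir665) of log2(CPM + 1), a description that mixes method, depth and treatment. The 5 other hairpins of at least 10 CPM whose profile was most like the mean of the group, of 287 compared, were Mir151 (r = 0.996), Mir485 (0.994), Mir484 (0.993), Mir758 (0.993) and Mir298 (0.990). Mir485 and Mir758 belong to the neighbouring miR-379 to miR-410 cluster. Mir151 showed 880 CPM in the tagged IP, 24.5 CPM in its input and 0.165 CPM in Dicer-null cells.

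The first comparison asked whether the hairpins came down with the tagged protein more than with the untagged one. All 8 were higher in the tagged IP than in the untagged IP, by 4.27-fold (Mir665) to 6.55-fold (Mir136), where 78.2% of the 698 hairpins tested were higher and 86.4% were called in either direction. Mir136 was at 3975 and 3539 CPM against 530 and 617 CPM, a log2 fold change of 2.71 ± 0.58 (SE, adjusted p = 0.00385, edgeR's quasi-likelihood test with Benjamini-Hochberg adjustment, n = 2 against 2). Mir127 was at 2896 and 2732 CPM against 487 and 664 CPM, a log2 fold change of 2.29 ± 0.58 (adjusted p = 0.00385, edgeR). Tagged and untagged libraries did not overlap for either hairpin. Mir665, the lowest, was at 191 and 129 CPM against 41.6 and 33.5 CPM, with 2.10 ± 0.64 (adjusted p = 0.00711, edgeR), and it was not called without tagged IP library 1 (adjusted p = 0.0737) or untagged IP library 2 (adjusted p = 0.0512). The median of the 8 was 2.36 and that of all hairpins 2.42. Scaled to hairpin reads, the median of all hairpins went to 0.10 and edgeR called none of the 8 (0 at an unadjusted p under 0.05). DESeq2 with its own size factors also called 0, and under both scalings Mir127, Mir431 and Mir665 were below 0.

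The second comparison set the tagged IP against its input, which measures enrichment from the starting RNA. All 8 hairpins were higher in the IP, where 83.4% of 698 hairpins were and 91.5% were called in either direction. Mir433 had the largest change, from 12.04 and 4.68 CPM to 507 and 468 CPM, a log2 fold change of 5.87 ± 0.76 (SE, adjusted p = 7.75e-06, edgeR's quasi-likelihood test, n = 2 against 2). Mir434 rose from 75.2 and 42.3 CPM to 1964 and 2775 CPM, by 5.33 ± 0.71 (adjusted p = 7.75e-06, edgeR). Input and IP were more than an order of magnitude apart in each case. Mir665 had the smallest change, from 11.3 and 5.71 CPM to 191 and 129 CPM, by 4.24 ± 0.70 (adjusted p = 2.12e-05, edgeR). The other 5 lay between 4.55 (Mir540) and 5.04 (Mir127), and the median of all hairpins was 4.86. With TMM factors, hairpin totals or DESeq2, Mir433 was the 1 hairpin of the 8 still called higher, and Mir665 was below 0.

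The untagged line gave the background of the same antibody. Here 6 of the 8 hairpins were higher in the IP than in the input, against 49.0% of all hairpins, of which 51.4% were called in either direction. Mir433 again had the largest change, from 17.9 and 11.3 CPM to 87.7 and 104 CPM, a log2 fold change of 2.72 ± 0.66 (SE, adjusted p = 0.0108, edgeR's quasi-likelihood test, n = 2 against 2). Mir337 had 2.14 ± 0.69 and Mir434 2.08 ± 0.61. Mir431, Mir127 and Mir136 had 1.79, 1.73 and 1.65. Mir540 stood at 42.8 and 44.0 CPM in the IP and at 25.8 and 12.5 CPM in the input, and was not called (1.18 ± 0.65, adjusted p = 0.126, edgeR). Mir665 was not called either (1.31 ± 0.63, adjusted p = 0.0838, edgeR), although its IP values of 41.6 and 33.5 CPM lay above its input values of 16.6 and 13.7 CPM. These calls were the least stable: leaving out untagged input library 2 left 0 of the 8, untagged IP library 2 left 1, untagged input library 1 or tagged IP library 2 left 3 each, and tagged IP library 1 left 4. With hairpin totals or TMM factors edgeR called 0 of the 8 (1 at an unadjusted p under 0.05), DESeq2 called Mir433, and Mir136 was below 0 under all 3 scalings.

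The gain of IP over input was larger in the tagged than in the untagged line for all 8 hairpins, by 2.72 (Mir337) to 3.37 (Mir540) on the log2 scale, where 55.2% of hairpins had a larger gain and 59.6% a different one. For Mir540 the difference was 3.37 ± 0.93 (SE, adjusted p = 0.0170, edgeR's interaction contrast, n = 2 a group), and for Mir127 it was 3.31 ± 0.81 with the same adjusted p. The median of all hairpins was 2.84. With hairpin totals, TMM factors or DESeq2 none of the 8 was called, with 0 at an unadjusted p under 0.05 in each. Leaving out tagged IP library 1, tagged IP library 2 or tagged input library 2 left 0 calls among the 8, untagged IP library 1 left 3 and untagged input library 1 left 4.

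The inputs asked whether the lines differed before the pull-down. None of the 8 was called between tagged and untagged input, and of 698 hairpins 0.0% were (edgeR's quasi-likelihood test, with 0 of the 8 and 23 of all hairpins at an unadjusted p under 0.05, and 0 calls by DESeq2). The log2 fold changes were all below 0 and ran from -1.02 ± 0.56 (SE) for Mir127, with 111 and 60.1 CPM against 150 and 197 CPM, to -0.24 ± 0.67 for Mir337. The median of the 8 was -0.80 and that of all hairpins -0.33.

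**Figure D2:**
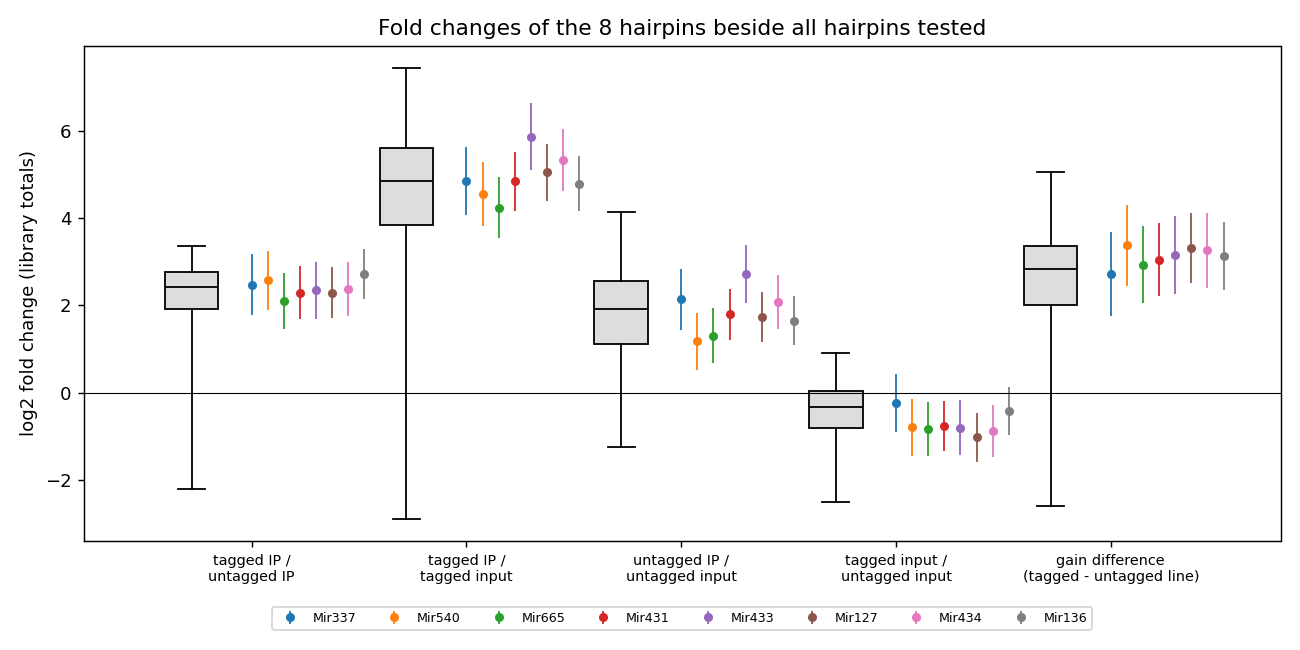
Log2 fold changes (vertical axis) by edgeR with library totals, a scale on which all hairpins move together: points are the 8 hairpins with their SE, grey boxes show the quartiles and median of all 698 hairpins tested, and whiskers run from the 5th to the 95th percentile. Mir433 lies above the box for the tagged IP against input (5.87) and the untagged IP against input (2.72), Mir540 above it for the gain (3.37), and Mir127, Mir434 and Mir665 below it for tagged against untagged input.

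The neighbours in the locus gave the context of these changes. Of the miR-379 to miR-410 cluster 36 hairpins were tested: 34 were higher, with library totals, in the tagged than in the untagged IP (median log2 fold change 2.46), and 36 higher in the tagged IP than in its input (median 4.85). Its most abundant hairpin, Mir541, stood at 2147 and 2248 CPM in the tagged IP and at 242 and 464 CPM in the untagged IP, and Mir379 at 1928 and 2327 CPM against 353 in each untagged library. Of the other hairpins of the locus 7 of 7 tested were higher in both comparisons, with medians of 2.26 and 5.14. Mir370, the most abundant of them, stood at 818 and 921 CPM against 168 and 189 CPM. These medians lay close to the 2.36 and 4.85 of the anti-Rtl1 group, and no difference between the groups was tested.

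Which arm was kept differed between the hairpins. In the circularization libraries Mir431 and Mir136 were 5p hairpins, with 98.1 to 99.2% and 93.4 to 97.2% of reads on the 5p arm. Mir433, Mir127 and Mir434 kept the 3p arm, with 1.80 to 8.05%, 0.738 to 4.35% and 4.41 to 15.3% of reads on the 5p arm. Mir665 had 1.91 to 7.10% there. Mir337 used both arms, with 65.5% and 69.6% of reads on the 5p arm in the tagged IP, and 50.3 to 54.9% in its input.

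Between the tagged IP and its input, 1 of the 8 hairpins changed its arm usage, where 15.4% of 267 hairpins with both arms did, 7.49% towards the 5p arm. Mir540 had 3.35% and 1.69% of reads on the 5p arm in the tagged IP, and 31.4% and 6.14% in the input. The log2 fold change of its 5p arm was lower by 3.64 than that of its 3p arm (adjusted p = 0.00835, edgeR's test of differential usage, n = 2 against 2). In tagged input library 1, 68 of 239 Mir540 reads (28.5%) began within 1 base of the 5p start and ran to the read limit of 50 nt. From the 5p start to the 3p end the hairpin spans 57 nt. Untagged input library 1 had 111 such reads (25.8%), untagged input library 2 had 14 (7.73%), and the tagged IP had 2 and 0. With reads of 20 to 24 nt the difference was -1.07 (adjusted p = 0.508, edgeR), and without tagged input library 1 it was -1.37 (adjusted p = 0.508). It was also not called without tagged IP library 1 (adjusted p = 0.0583) or tagged IP library 2 (adjusted p = 0.235). Over all 8 hairpins such reads made up 1.86% and 1.73% of reads in the tagged and untagged input libraries 1, and 0.156% and 0.227% in libraries 2, where the limit was 51 nt. Tagged against untagged IP gave no change of arm usage for any of the 8, nor for any of the 267 hairpins (0.0%, edgeR, with 0 of the 8 and 12 of all at an unadjusted p under 0.05).

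The 5p shares of Mir136, Mir434 and Mir337 differed most between the circularization libraries and the ligation libraries with doxycycline and of wildtype. Mir136 had 94.5% ± 0.71 (SD, n = 2) on the 5p arm in the tagged input, but 24.1% (95% Clopper-Pearson interval 22.8 to 25.5%) in the ligation library with doxycycline, 32.2% in wildtype and 3.51% (1.93 to 5.82%) without doxycycline. Its most abundant arm was thus miR-136-3p there and miR-136-5p in the circularization libraries. Mir434 went the other way between arms, with 15.3% and 6.49% on the 5p arm in the tagged input against 67.4% (66.6 to 68.3%) with doxycycline and 64.6% in wildtype. Mir337 had 54.9% and 50.3% in the tagged input against 99.2% with doxycycline and 98.5% in wildtype. Intervals cover counting error only, since PCR copies were not told apart. Between the ligation library with doxycycline and the mean of the tagged inputs, these 3 of 8 hairpins moved by at least 25 percentage points, and so did 22.2% of 189 hairpins with at least 50 reads in each library. Mir136, at -70.4 points, had a larger size than 97.4% of these. Each ligation group is a single library, so this difference has no replicate check.

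**Figure D3:**
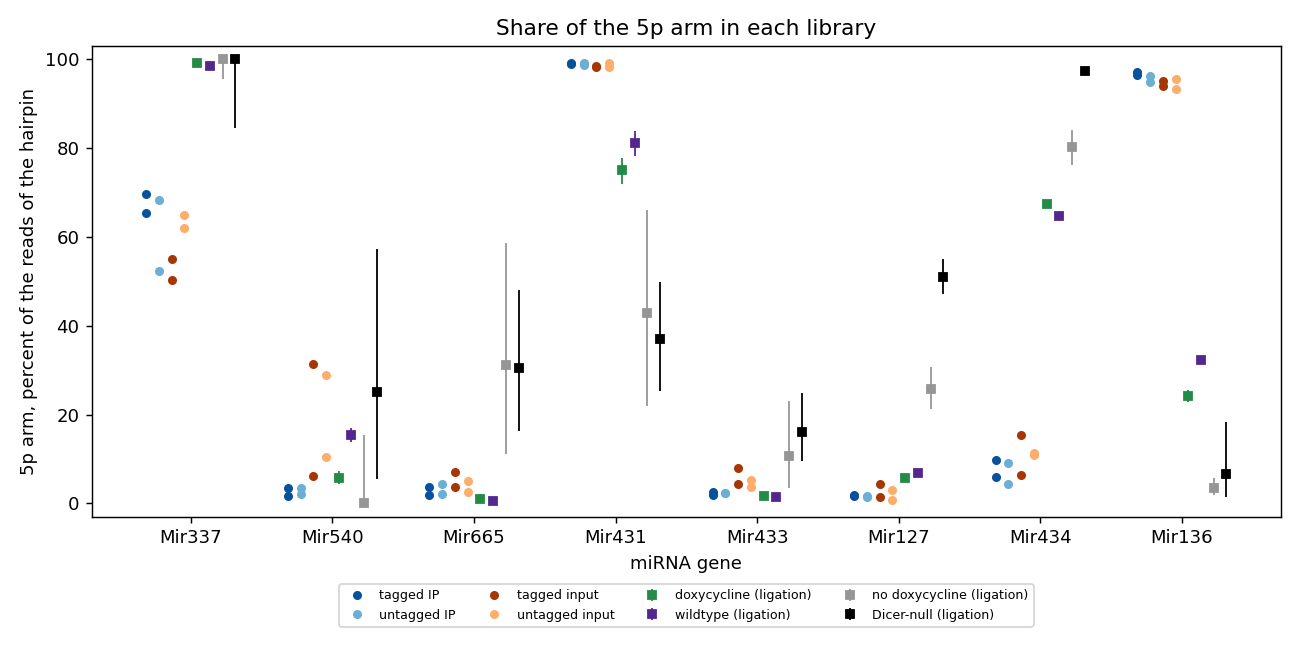
Share of the 5p arm among the reads of each hairpin, in percent: circles are circularization libraries, squares are single ligation libraries with 95% Clopper-Pearson intervals. Circles and squares are far apart for Mir136 (93.4 to 97.2% against 24.1 and 32.2% with doxycycline and in wildtype) and Mir434 (4.41 to 15.3% against 67.4 and 64.6%).

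Most main arms began at the annotated base. In the tagged IP 98.3% and 97.8% of miR-127-3p reads, 98.2% and 98.8% of miR-540-3p reads and 94.5% and 94.6% of miR-136-5p reads did. The main arm of Mir433 varied most: 79.8% and 77.2% of its reads began at the annotated base in the tagged IP, and 10.5% and 12.95% began 2 or 3 bases further in. The untagged IP had 14.6% and 15.8% such reads and the inputs 6.25 to 50.96%, whereas the ligation libraries had 0.116% with doxycycline, 0.307% in wildtype, 2.38% without doxycycline and 3.61% in Dicer-null cells. Its frequent short form in the tagged IP, with 2002 reads, is set beside the annotated arm below, with bases 2 to 8 of each in capitals.
miR-433-3p, annotated: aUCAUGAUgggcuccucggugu
miR-433-3p, start 3 bases in: aUGAUGGGcuccucggugu

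The minor arms often began elsewhere, which moves the seed. Of miR-434-5p reads in the tagged IP 43.2% and 67.8% began 1 base before the annotated start, against 25.2% with doxycycline, 29.2% in wildtype and 49.3% without doxycycline, the last within the tagged IP range. miR-127-5p began at its annotated base in 16.7% and 9.58% of tagged IP reads, 1 base in for 39.6% and 64.1%, and 2 bases in for 38.3% and 19.6%. The tagged IP libraries lay far apart from each other on both arms. For miR-431-3p, 62.0% and 56.8% of reads began 2 bases and 26.1% and 29.3% began 3 bases before the annotated start. The most frequent tagged IP forms of these arms were the following, with bases 2 to 8 in capitals.
miR-434-5p, start 1 base before: aGCUCGACucaugguuugaacc
miR-127-5p, start 1 base in: uGAAGCUCagagggcucugauuc
miR-431-3p, start 2 bases before: uGCAGGUCgucuugcagggcuuc
None of the 13 shifted seeds that reached at least 5% of an arm in the tagged IP is the seed of an annotated mouse mature miRNA in the table.

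Mir136 began differently on both arms in the tagged IP and in the ligation libraries with doxycycline and of wildtype. Method, title code and read length cannot be told apart here. Of miR-136-3p reads 71.6% with doxycycline, 64.6% in wildtype and 94.5% without doxycycline began 1 base before the annotated start, against 18.0% and 11.5% in the tagged IP. There 26.6% and 26.3% began 1 base in, against 1.03% with doxycycline and 1.37% in wildtype. Of miR-136-5p reads 32.8% with doxycycline and 12.1% in wildtype began 3 bases before the annotated start, against 0.262% and 0.395% in the tagged IP. The ligation forms with the most reads at these starts were the following.
miR-136-3p, start 1 base before: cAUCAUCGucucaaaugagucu
miR-136-5p, start 3 bases before: aGGACUCCauuuguuuugaugau

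**Figure D4:**
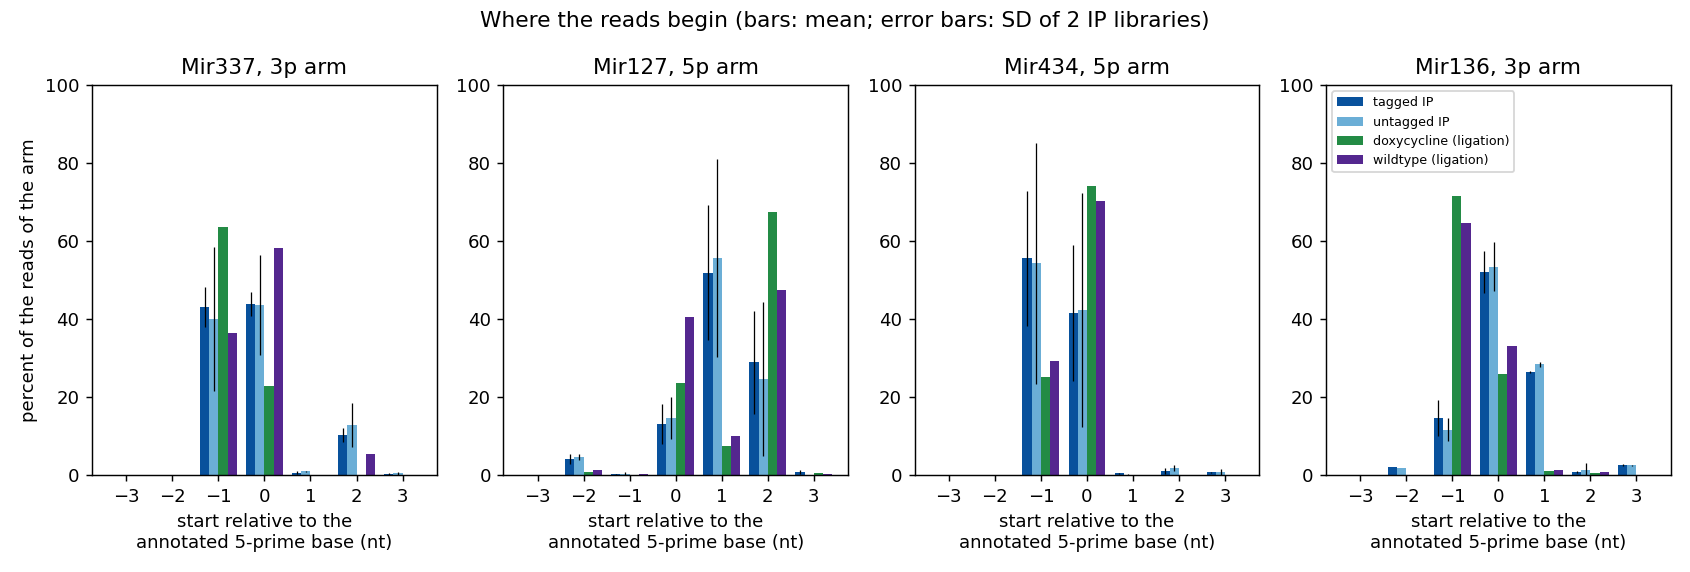
Percent of the reads of an arm that begin at each base from 3 before to 3 after the annotated 5′ base (position 0), for 4 arms; bars are means with the SD of the 2 IP libraries, and single values for the ligation libraries. For Mir136 3p the ligation bars peak 1 base before the annotated start (71.6% and 64.6%) and the IP bars at it, and for Mir434 5p the wide error bars show that the IP libraries of a group differ.

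Lengths at the 3′ end differed by hairpin. The 20-nt annotation of miR-540-3p accounted for 13.5% of its tagged IP reads, while forms longer by 1 and 2 templated bases made up 34.0% and 47.6%. The annotated form of miR-434-3p made up 50.4% of its tagged IP reads, and the form 1 base shorter at the 3′ end 40.9%. For miR-431-5p the annotated 21-nt form made up 47.6%, and the 20-nt form with the same start 39.3%. The most frequent miR-540-3p form is thus 2 bases longer than the annotated one.
miR-540-3p, most frequent form: aGGUCAGAggucgauccugggc

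Bases at the 3′ end that the hairpin does not encode were frequent on a few arms. Read errors at these bases were not told apart from added bases. When up to 2 such bases were allowed, 37.0% and 38.9% of miR-127-3p reads carried them in the tagged IP, 37.4% and 41.2% in the tagged input, and 37.0% and 35.1% in the ligation libraries with doxycycline and of wildtype. The IP and input ranges overlapped. Of the tagged IP reads 17.6% and 19.8% ended in such U, 14.3% and 13.7% in such A and 5.09% and 5.44% in other bases. With doxycycline and in wildtype the values were 14.4% and 12.9% for U, 8.63% and 8.07% for A, and 13.9% and 14.2% for other bases. With any such bases counted, miR-665-3p had 26.2% and 23.2% and miR-540-3p 19.7% and 18.5% in the tagged IP. At the other end of the range, miR-434-3p had 1.61% and 1.46% and miR-136-5p 0.952% and 0.697% there. In the ligation libraries these last 2 arms had 10.2% and 5.89% with doxycycline and 15.5% and 8.66% in wildtype.

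Dicer-null cells held little of any hairpin of the group. All 8 were at least 2-fold lower than in wildtype, as were 66.6% of 739 hairpins, in 1 library each and so without a replicate check. Mir136 fell from 321 to 0.571 CPM, 561-fold (95% Clopper-Pearson interval 419 to 770), and Mir337 from 149 to 0.279 CPM, 535-fold (353 to 854). Mir127 fell from 1854 to 8.04 CPM, 231-fold (213 to 250). The smallest falls were those of Mir431, from 23.9 to 0.825 CPM (29.0-fold, 22.5 to 38.0), and of Mir434, from 637 to 23.7 CPM (26.9-fold, 25.6 to 28.2). Mir434 held 67.2% of the group's reads in Dicer-null cells, against 20.1% in wildtype. Scaled to hairpin reads, 6 of the 8 remained past 2-fold, with Mir431 at 1.95-fold and Mir434 at 1.81-fold lower. With reads of 20 to 24 nt the falls were larger: 128-fold (75.7 to 235) for Mir431, 310-fold (196 to 525) for Mir433, against 57.1-fold with all lengths, and 199-fold (126 to 337) for Mir665, against 102-fold. Mir127 then fell 371-fold and Mir136 1008-fold, while Mir434 fell 37.0-fold and had the smallest fall of the 8. With untemplated 3′ bases allowed Mir665 fell 170-fold.

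The reads left in Dicer-null cells had other lengths. Of the group's reads 69.1% were 24 nt or longer, against 0.343% in wildtype and 7.08% without doxycycline. Of the reads of all other hairpins 84.6% were 24 nt or longer in Dicer-null cells, 71.0% without doxycycline and 16.9% in wildtype. Of the group's 1630 such reads on 5p arms 1600 began within 1 base of the annotated 5p start, and of the 292 on 3p arms 195 ended within 1 base of the annotated 3p end. Mir434 gave 1439 of the 1922 long reads. Its reads were 97.3% 5p, and 899 of 1817 of these (49.5%) had a single 24-nt sequence that is 2 bases longer than the annotated arm at the 3′ end. The next most frequent was 27 nt (10.1%). The leading Dicer-null forms of Mir434 and Mir127 are set beside the most frequent wildtype and doxycycline form of Mir434, with bases 2 to 8 in capitals.
miR-434-5p, wildtype and doxycycline: gCUCGACUcaugguuugaacc
miR-434-5p, Dicer-null, 24 nt: gCUCGACUcaugguuugaaccauu
miR-434-5p, Dicer-null, 27 nt: gCUCGACUcaugguuugaaccauuacu
miR-127-5p, Dicer-null, 28 nt: cUGAAGCUcagagggcucugauucagaa
The 28-nt form made up 29.7% of miR-127-5p reads in Dicer-null cells (96 of 323). On the 3p side 47.4% of the 310 miR-127-3p reads still had the annotated 22-nt form.

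**Figure D5:**
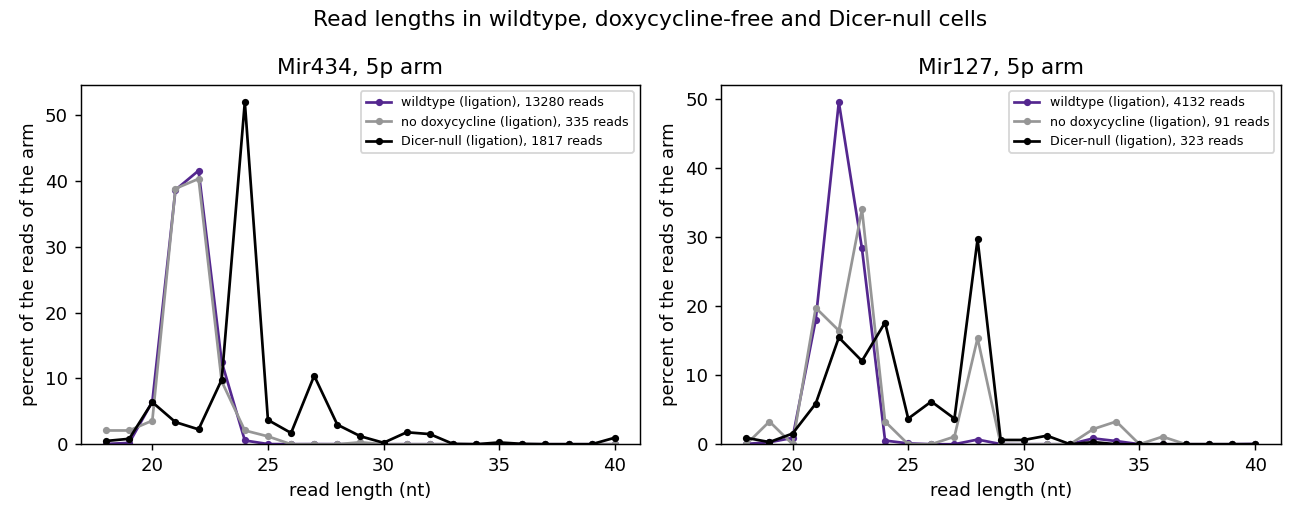
Read lengths on the 5p arms of Mir434 and Mir127, in percent of the reads of the arm, for the wildtype, doxycycline-free and Dicer-null ligation libraries, with read numbers in the legend. Mir434 peaks at 24 nt in Dicer-null cells and at 21 to 22 nt in the others, and Mir127 has a 28-nt peak in Dicer-null cells (29.7%) that is smaller without doxycycline (15.4%).

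Without doxycycline all 8 hairpins were also at least 2-fold lower than in wildtype, where 75.4% of 668 hairpins were. Mir127 was at 13.3 against 1854 CPM, 139-fold lower (126 to 155), and Mir136 at 15.0 against 321 CPM, 21.3-fold lower (19.3 to 23.6). Mir434 was 40.5-fold lower, at 15.7 against 637 CPM. The group's reads in these cells were 20 to 23 nt in 89.9%, against 28.7% in Dicer-null cells and 98.96% in wildtype. Of the reads of all other hairpins without doxycycline 22.1% had these lengths. The arms of Mir136 fell unequally: the 5p arm from 103.3 to 0.527 CPM and the 3p arm from 217 to 14.5 CPM, 196-fold (117 to 359) and 15.0-fold (13.5 to 16.7) lower. Scaled to hairpin reads, 6 of the 8 were past 2-fold. With reads of 20 to 24 nt Mir433 was 81.9-fold lower, against 40.5-fold with all lengths, Mir431 60.3-fold, against 30.3-fold, and Mir665 403-fold (138 to 1955, on 3 reads), against 77.3-fold. With untemplated 3′ bases allowed Mir665 was 129-fold lower.

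With doxycycline all 8 were at least 2-fold higher than without it, as were 69.4% of 562 hairpins. Mir127 had the largest ratio, 1193 against 13.3 CPM, 89.7-fold (80.8 to 99.9), followed by Mir433 with 126 against 1.77 CPM, 71.2-fold (53.5 to 97.2). Mir136 had the smallest, 143 against 15.0 CPM, 9.51-fold (8.58 to 10.6). The interval of Mir136 lay below those of the other 7 hairpins. Its arms differed: the 3p arm, with 385 of the 399 reads without doxycycline, was 7.48-fold higher (6.73 to 8.34). The 5p arm was 65.3-fold higher (38.7 to 120, on 14 reads without doxycycline). Scaled to hairpin reads 7 of the 8 were past 2-fold. The order at the top depended on the read lengths counted: with reads of 20 to 24 nt the ratio was 144-fold (95.6 to 227) for Mir433, 102-fold (91.2 to 115) for Mir127 and 80.6-fold (43.6 to 169) for Mir431. That of Mir665 was 203-fold (69.2 to 988) on 3 reads without doxycycline, against 40.8-fold with all lengths.

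Set against wildtype, the doxycycline library had 1 of the 8 hairpins at least 2-fold lower, where 52.5% of 667 hairpins were. Mir136 was at 143 against 321 CPM, a ratio of 0.446 (0.430 to 0.462). Mir337, Mir540, Mir665, Mir127 and Mir434 had ratios of 0.527 (Mir665) to 0.646 (Mir434). Mir433 was higher than in wildtype, at 126 against 71.7 CPM (1.76, 1.67 to 1.85), and Mir431 was at 31.9 against 23.9 CPM (1.33, 1.21 to 1.47). The median of the 8 was 0.638 and that of all hairpins 0.450. In the same pair the stem cell hairpins summed to 19970 against 46744 CPM. Over 11 of them the ratio ran from 0.0101 to 0.530, with a median of 0.0191. The ratios of the miR-302 cluster were the lowest. In the miR-290 cluster, Mir294 stood at 1201 against 3410 CPM, Mir291a at 1436 against 4101 CPM and Mir295 at 2271 against 7336 CPM. The part of the stem cell hairpins in the comparison was not tested. Scaled to hairpin reads, 0 of the 8 were 2-fold lower and the ratios of Mir337, Mir540, Mir665, Mir127 and Mir434 lay above 1, and with untemplated 3′ bases allowed 2 were.

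Reads of the opposite strand could come from Rtl1 or from another transcript against the hairpins, but their source was not tested. Over the 8 hairpins there were 104 such reads in the 12 libraries, against 875623 sense reads. Of these, 28 lay opposite Mir136 and 11 opposite Mir337. Annotated miRNA hairpins lie on that strand at both places, so these reads can also come from those hairpins. The tagged IP held 34 and 42 of the 104 reads and the 4 ligation libraries 1. All but 1 of the 104 were the exact reverse complement of a read of the same hairpin, and 0 began opposite base 10 of a mature arm. In the tagged IP, the 185 hairpins with at least 1000 sense reads in both libraries had a median of 8.50 and 8.51 opposite-strand reads per 100000 sense reads in libraries 1 and 2. The 6 members without an annotated hairpin opposite had medians of 11.3 and 13.5, within the quartiles of the 185. Elsewhere in Rtl1 there were 4 reads in all 12 libraries. These counts hold only reads of at least 18 nt that lay whole within a hairpin. miR-136-5p lies so near the end of its hairpin that a read starting opposite its base 10 could not be counted. Pieces of Rtl1 mRNA above the size range of the libraries were not read either. The 0 at the cut positions thus sets no limit on the cutting of Rtl1, which was not tested. For reads that could be counted it allows up to 3, which is 0.0381 CPM in the deepest library and 0.207 CPM in the shallowest.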

How the data were processed

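Small RNA was sequenced in 12 libraries of mouse embryonic stem cells. The deposited files list each distinct read with its raw read count, which the authors did not normalise, as the values show. The aligner, trimming and genome build behind them are not given in the sources used here. Reads of 18 nt or more were matched exactly to GENCODE vM21 (GRCm38) transcripts; no genome was searched. A read belonged to the 5p arm when its midpoint lay before the point midway between the annotated arms. CPM used the file total. One edgeR 4.0.16 model (R 4.3.3, limma 3.58.1) held the 4 replicated groups, with quasi-likelihood tests, library totals, filterByExpr and Benjamini-Hochberg adjustment over all hairpins at 0.05. Arm usage was tested with its differential usage test. Single libraries were compared by CPM ratios with exact binomial intervals at 95%, over hairpins with at least 10 reads in either library. DESeq2 1.42.0, TMM, hairpin totals, no filter, reads of 20 to 24 nt, untemplated 3′ bases, a replicate block and leaving out each library were alternatives. On simulated data with 631 hairpins tested the edgeR fit found 80 of 94 changed 4-fold and 18 of 94 changed 2-fold, with 3 false calls among 443. The arm test on 245 hairpins found 60 of 60 with an 8-fold change of 1 arm, with 7 false calls among 185. Both simulations gave all libraries the same hairpin levels and a fixed spread, apart from the changes set in the tagged IP. For hairpins these changes went up and down alike. In the data most hairpins were higher in the tagged IP, so these rates may not carry over to the results above.

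The named hairpins are the 8 members, the 5 with the most similar profile, and up to 3 of the most abundant of each list. The members and lists were chosen with earlier results of these data known. Depth was 14474875 to 78762632 reads, and 3 counts correspond to 0.0381 to 0.207 CPM.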

Additional observations from a re-analysis of the deposited data

Results flagged for a closer look

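The gain of IP over input differed between the tagged and the untagged line for each of the 8 hairpins by the interaction test in edgeR. On the log2 scale the difference (tagged minus untagged line) was 3.31 for Mir127, 3.13 for Mir136, 2.72 for Mir337 and 3.05 for Mir431. It was 3.15 for Mir433, 3.26 for Mir434, 3.37 for Mir540 and 2.93 for Mir665. The median of all 698 hairpins was 2.84, and 55.2% of them had a larger gain in the tagged line.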

How the results depend on the processing

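All counts of called hairpins use library totals. Scaling to hairpins moved the median of all hairpins from 2.42 to between 0.05 and 0.10 for tagged against untagged IP, from 4.86 to between 0.22 and 0.34 for tagged IP against input, from 1.91 to between 0.07 and 0.11 for the untagged line, and from 2.84 to between 0.02 and 0.16 for the gain. With hairpin totals, TMM and DESeq2 the calls among the 8 were 0, 0 and 0 for tagged against untagged IP, 1, 1 and 1 for tagged IP against input, 0, 0 and 1 for the untagged line, and 0, 0 and 0 for the gain. Some fold changes then turned negative. For tagged against untagged IP these were Mir127 (-0.0049, -0.066, -0.092), Mir431 (-0.037, -0.10, -0.13), Mir665 (-0.28, -0.32, -0.35) and, with TMM and DESeq2, Mir433 (-0.029, -0.055). For tagged IP against input they were Mir665 (-0.23, -0.27, -0.40) and, with DESeq2, Mir540 (-0.027). For the untagged line they were Mir136 (-0.059, -0.20, -0.22) and, with TMM and DESeq2, Mir127 (-0.16, -0.18) and Mir431 (-0.017, -0.033). For the gain it was Mir337 with DESeq2 (-0.082). None of these was called. With hairpin totals the ratios of doxycycline to wildtype rose above 1 for Mir127 (1.32), Mir337 (1.30), Mir434 (1.33), Mir540 (1.20) and Mir665 (1.08), and 0 hairpins were 2-fold lower; with untemplated bases 2 were. Leaving out 1 library gave 7 to 8 calls for tagged against untagged IP, 8 for tagged IP against input, 0 to 6 for the untagged line, 0 to 8 for the gain, and 0 to 1 for arm usage of tagged IP against input. A group left with 1 library is assumed to vary like the others. Arm usage of Mir540 had 0 calls with reads of 20 to 24 nt. Libraries of the same number share a code in their titles and a read-length limit, which the labels do not call a batch or day. The difference between libraries 1 and 2 of a group was correlated across 698 hairpins with that of another group. These correlations of differences were 0.0672 to 0.481 over 6 group pairs, 1 of them below 0.1. With the replicate block no call of the 8 changed: they were 8, 8, 6, 0 and 8 for the 5 comparisons and 1 and 0 for arm usage. The causes of these changes were not tested. With reads of 20 to 24 nt 14 of 32 ratios between single libraries moved beyond their intervals, and with untemplated bases 6 did; 0 of them changed direction.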

Other observations

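Unlike the hairpins of the group, the long non-coding transcripts of the locus were lower in the tagged than in the untagged IP. Reads inside Rian, outside annotated hairpins, stood at 6.33 and 3.65 CPM in the tagged IP and at 38.4 and 14.8 CPM in the untagged IP. Mirg stood at 3.35 and 3.19 CPM against 31.2 and 20.7 CPM, and Meg3, the maternally expressed RNA at the start of this transcription unit, at 1.40 and 0.797 CPM against 17.1 and 6.47 CPM. For each of these 3 the untagged IP libraries lay above the tagged ones, and no test across genes was run. Hairpin reads made up 50.7 to 58.3% of the tagged IP and 9.19 to 13.1% of the untagged IP. Less of the tagged IP total was thus left for any other RNA. The part of this in the difference was not tested, nor were other transcripts compared. In the ligation libraries Rian had 72.5 CPM in wildtype, 124 CPM with doxycycline, 142 CPM without it and 160 CPM in Dicer-null cells. Mirg had 86.1, 157, 134 and 192 CPM in the same order. Dlk1, Begain and Dio3 had at most 4 reads in any library.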
